A study of Mus musculus with 8 samples.

Results

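The 10 genes described here carry fatty acids into the cell and break them down in mitochondria. They are the binding proteins Fabp3, Fabp4 and Fabp5, the uptake genes Cd36 and Lpl, the carnitine shuttle genes Cpt1a, Cpt1b and Cpt2, and the dehydrogenases Acadm and Acadvl. Each was found as the row of the deposited gene table with that name, 1 row per gene, which gave 10 of 33495 genes. The tissue was the outflow tract of the mouse heart, through which blood leaves the ventricles for the great arteries, and its RNA was sequenced. The mutant group held 4 samples with a conditional knockout of Mef2c in the anterior heart field, and the wild-type group held 4 samples. The anterior heart field is a progenitor population that adds muscle to the right ventricle and outflow tract, and Mef2c encodes a muscle transcription factor. All 8 samples were of the CD-1 background. The sources used here do not give the Cre driver, the embryonic stage, the number of embryos per sample or the litters. The p-values therefore measure only the spread between these samples, part of which may be technical.

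Heart muscle of the adult lives mainly on fatty acids, while the embryonic heart relies more on glucose and lactate, and fatty acid genes rise as the heart matures. Lipoprotein lipase frees fatty acids from lipoproteins, CD36 helps them across the plasma membrane, and fatty acid binding proteins carry them in the cytosol. The CPT1 enzymes at the outer mitochondrial membrane load activated fatty acids onto carnitine, CPT2 unloads them inside, and the acyl-CoA dehydrogenases start each round of beta-oxidation. FABP3 and CPT1B are the forms of heart and skeletal muscle, CPT1A is the liver form and is common in fetal tissue, FABP4 is typical of fat cells and capillary endothelium, and FABP5 is found in many cell types including skin and endothelium.

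Mutant libraries held 7697492 to 10006137 counts in total and wild-type libraries 7138732 to 11012246. Replicates 1 and 2 of each group were on lane 1 and replicates 3 and 4 on lane 2. The gene-level count of Mef2c averaged 140.4 ± 14.4 CPM, that is counts scaled to library size, in mutant and 112 ± 12.8 CPM in wild type (n = 4 each, SD), a difference that missed the threshold (adjusted p = 0.212, edgeR). The count covers the whole gene, not the deleted exons alone. By the exon test of the authors' deposited table Mef2c had rank 1, with a log2 ratio of -3.30 at its most changed exon. Mutant library 1 and wild-type library 4 held 3 and 2 reads of the Y-linked gene Ddx3y, where the other libraries held 419 to 596, so the libraries of a group did not all come from the same material. Mutant library 4 and wild-type library 2 stood apart in markers of chamber muscle, the myocardium of the ventricles and atria, with list medians 0.89 and 1.19 above the 8-library mean on the log2 CPM scale.

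Of the 10 genes, 1 changed. Fabp3 fell in mutant outflow tracts, and of the 9 genes that passed the filter on low counts it alone passed an adjusted p of 0.05 in edgeR's quasi-likelihood test, with 0 genes higher and 8 that did not pass. Over all 14757 genes tested 0.942% were called lower, 0.562% higher and 1.5% in either direction. At an unadjusted p under 0.05, 7 of the 9 were called, 5 lower and 2 higher, where 11.4% of all tested genes were, 6.09% lower and 5.27% higher. DESeq2 also called Fabp3 and no other of the 9, where it called 2.98% of all genes and 1.72% as lower. The median log2 fold change of the 9 genes was -0.32, and that of all tested genes was -0.006. The 10th gene, Fabp4, was too rare to be tested.

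Promoter sequences are shown for the gene of the set that fell, Fabp3, and for G0s2, the gene that fell among the wider fatty acid genes described further on. Both come from RefSeq on the GRCm38.p6 build, not the mm9 build of the counts, and each runs from 250 bases before the transcription start through its first 20 transcribed bases. Capitals mark the transcribed bases. The Fabp3 stretch lies at chr4:130308488-130308757 on the plus strand and that of G0s2 at chr1:193273169-193273438 on the minus strand.
Fabp3: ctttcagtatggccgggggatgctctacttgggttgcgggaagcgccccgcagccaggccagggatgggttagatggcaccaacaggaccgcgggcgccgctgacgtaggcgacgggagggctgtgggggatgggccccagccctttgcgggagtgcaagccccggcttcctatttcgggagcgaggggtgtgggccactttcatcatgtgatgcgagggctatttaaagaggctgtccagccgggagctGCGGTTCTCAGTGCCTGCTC
G0s2: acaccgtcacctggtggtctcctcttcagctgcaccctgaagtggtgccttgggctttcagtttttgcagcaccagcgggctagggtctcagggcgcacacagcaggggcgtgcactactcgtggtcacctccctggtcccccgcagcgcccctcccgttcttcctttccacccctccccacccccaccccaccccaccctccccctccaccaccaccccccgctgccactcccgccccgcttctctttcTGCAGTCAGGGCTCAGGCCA

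Promoters of 6 of the 10 genes were matched by symbol, those of Fabp3, Cd36, Cpt1a, Cpt2, Acadm and Acadvl. Motifs were searched on both strands of the 300 bases from 250 before to 50 after the start. CTANNNNTAG, the outer letters of one form of a MEF2 site with any letters between, was in 0 of the 6 and not in that of G0s2. It was in 3.69% of 32851 promoters, and other forms of the site were not searched. The direct repeat AGGTCANAGGTCA, bound by PPAR and RXR pairs, was in 0 of the 6 and in 0.0396% of all promoters, and TATAAA was in 0 of the 6 and in 13.6% of all. GGGCGG, the core of an SP1 site, was in the promoters of Cd36, Cpt1a, Cpt2 and G0s2 and in 35.7% of all. At the rates of the MEF2 and PPAR motifs, 0 was the likely count for any 6 promoters. These matches are letters in a window and say nothing of what binds there.

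The FABP genes are related in sequence, and their reference coding sequences were compared, since reads of related genes can be assigned to either. In their coding sequences Fabp3 was 65.3% identical to Fabp4 and 56.8% to Fabp5, and Fabp4 was 60.8% identical to Fabp5. The longest run shared by Fabp3 and Fabp4 was 14 bases, in capitals below within 30 coding bases on each side, from the reference transcripts of the GRCm38 build at coding bases 46 to 119 of both genes.
Fabp3: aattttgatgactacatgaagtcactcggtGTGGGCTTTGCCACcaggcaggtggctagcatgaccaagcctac
Fabp4: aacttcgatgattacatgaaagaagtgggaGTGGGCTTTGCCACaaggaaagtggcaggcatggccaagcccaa
The run was 10 bases between Fabp3 and Fabp5, and 20 bases between Cpt1a and Cpt1b, whose coding sequences were 66.2% identical.

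Fabp3, the heart form (ENSMUSG00000028773, chr4:129985839-129992707, plus strand, mm9), had 271, 203, 318 and 373 reads in mutant libraries 1 to 4, against 1006, 576, 379 and 403 reads in those of wild type. Scaled to library size this was 30.01, 25.7, 31.1 and 37.2 CPM in mutant and 93.0, 79.0, 52.0 and 54.9 CPM in wild type. Each mutant library lay below each wild-type library, and the lane 1 wild-type libraries lay well above those of lane 2. Fabp3 averaged 31.0 CPM ± 4.71 in mutant and 69.7 ± 19.7 in wild type (n = 4 each, SD), so the mutant level was 0.444 of the wild-type one. The log2 fold change was -1.17 ± 0.188 (SE; edgeR adjusted p = 0.0103). In the authors' deposited table Fabp3 passed as well, with a false discovery rate of 1.13e-12, where 1.73% of all rows passed at 0.05. Pooled FPKM values there were 48.2 in mutant and 107.2 in wild type. The modified log2 fold change there, which per its header accounts for high-variance samples, was smaller in size, at -0.45. Fabp3 overlaps the opposite-strand gene Zcchc17 by 81 bases, and the sources used here do not say whether counting used strand. Zcchc17 had 1295 reads in all and missed the threshold at -0.10 on the log2 scale (adjusted p = 0.880, edgeR).

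Fabp3 was lower in mutant in both lanes. Its log2 fold change was -1.63 in lane 1 alone (adjusted p = 0.000272, edgeR) and -0.66 in lane 2 alone, where it did not pass (adjusted p = 0.0903, edgeR). The group by lane term did not pass for Fabp3 (adjusted p = 0.0678, edgeR). Leaving out 1 library at a time kept it between -1.29 and -0.996 with adjusted p-values of 0.0062 to 0.0436 by edgeR. Without both libraries low in Ddx3y it was -1.251 (adjusted p = 0.0386, edgeR), and without both libraries high in chamber markers -1.21 (adjusted p = 0.0355, edgeR).

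Fabp5 (ENSMUSG00000027533, chr3:10012548-10016607, plus strand), the epidermal form, went the other way in level. It had 74.4, 67.2, 83.0 and 75.7 CPM in mutant and 65.9, 61.4, 56.4 and 43.7 CPM in wild type. The lowest mutant library was just above the highest wild-type one, so the groups did not overlap. Fabp5 averaged 75.1 CPM ± 6.48 in mutant and 56.9 ± 9.58 in wild type (n = 4 each, SD), a log2 fold change of 0.40 ± 0.123 (SE) that missed the threshold (adjusted p = 0.182, edgeR). It was 0.15 in lane 1 and 0.65 in lane 2. Of the 9 tested genes 3 had groups without overlap, Fabp3 lower and Fabp5 and Cpt1a higher in mutant, where 6.72% of all tested genes had such groups, 3.27% lower and 3.44% higher.

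Fabp4 (ENSMUSG00000062515, chr3:10204347-10208576, minus strand), the fat cell form, was near the limit of detection. It had 4, 1, 2 and 3 reads in mutant and 18, 3, 9 and 2 reads in wild type. Wild-type libraries 1 and 3 held most of the reads, and the groups overlapped. The summed 10 mutant and 32 wild-type reads give a ratio of 0.275 (95% counting interval 0.121 to 0.574), which covers counting error only and compares these libraries, not the conditions. Markers of fat cells were at or near 0, since 3 of 8 (Cidec, Lep and Retn) had no read, and the list summed to 0.111 to 0.996 CPM in mutant and 0 to 0.647 CPM in wild type.

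The share of Fabp3 among the FABP forms was lower in each mutant library than in any wild-type library. Taken per length of the deposited exons, Fabp3 was 67.8%, 67.1%, 66.6% and 72.1% of the summed level of the 3 genes in mutant, and 86.9%, 87.0%, 81.6% and 86.7% in wild type. Its share averaged 68.4% ± 2.52 in mutant and 85.6% ± 2.66 in wild type (n = 4 each, SD), and the groups did not overlap. The deposited exon length of Fabp5 was 3567 bases, against 987 for its longest-coding reference transcript, while Fabp3 had 662 deposited and 823 transcript bases. Per kb of that transcript, a length chosen after the values were seen, the share of Fabp3 was 32.95% ± 2.74 in mutant and 58.6% ± 4.58 in wild type, and that of Fabp5 was 66.8% ± 2.78 in mutant and 40.7% ± 4.38 in wild type. On this length Fabp5 was the higher of the pair in mutant, at 76.1 CPM per kb against 37.7 for Fabp3, and Fabp3 the higher in wild type, at 84.7 against 57.6. The order of Fabp3 and Fabp5 in mutant thus differed between the lengths, and the share of Fabp3 was lower in mutant with both.

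**Figure D1:**
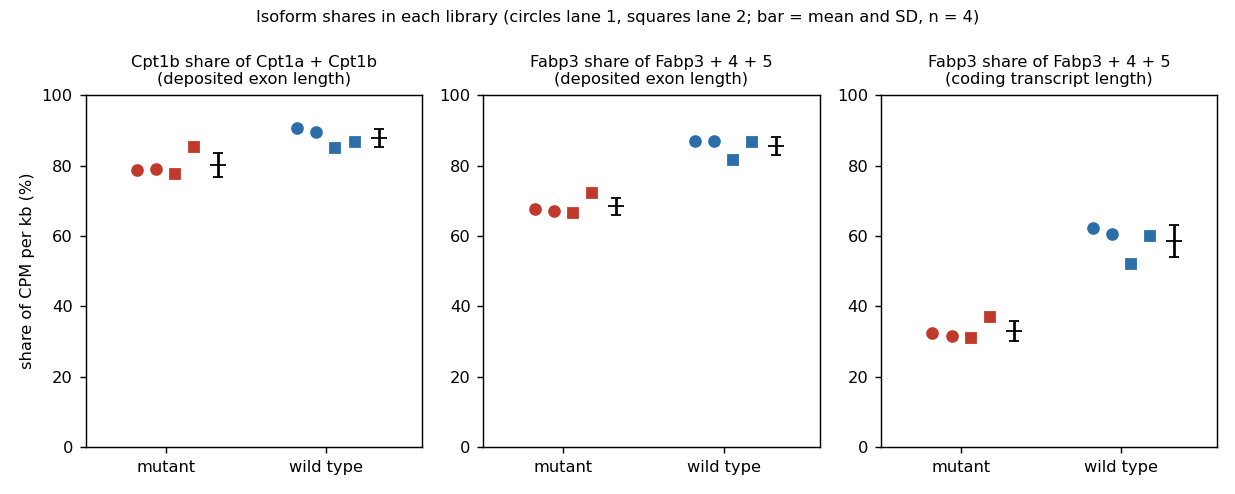
Share of Cpt1b in the summed level of Cpt1a and Cpt1b, and of Fabp3 in that of Fabp3, Fabp4 and Fabp5, in percent of CPM per kb for each library, mutant left and wild type right, with mean and SD (n = 4). With both lengths the mutant libraries lay below every wild-type library for Fabp3, while for Cpt1b the groups overlapped at mutant library 4.

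Cd36 (ENSMUSG00000002944, chr5:17287834-17341514, minus strand), the membrane fatty acid translocase, had 9.63, 9.38, 13.8 and 19.6 CPM in mutant and 28.4, 19.5, 18.9 and 20.3 CPM in wild type. Mutant libraries 1 to 3 were below all wild-type libraries, and mutant library 4 was within the wild-type range. Cd36 averaged 13.1 CPM ± 4.79 in mutant and 21.8 ± 4.45 in wild type (n = 4 each, SD), a log2 fold change of -0.73 ± 0.234 (SE) that missed the threshold (adjusted p = 0.207, edgeR). It passed without mutant library 4, at -0.99 (adjusted p = 0.0326, edgeR). In lane 1 it was -1.34 and passed (adjusted p = 0.00906, edgeR), and in lane 2 it was -0.24 (adjusted p = 0.872, edgeR). In the authors' deposited table Cd36 and Fabp3 were the 2 of the 10 genes past a false discovery rate of 0.05, Cd36 with 0.00581, but the modified log2 fold change there was 0.08 for Cd36, of the opposite sign to the pooled FPKM of 4.53 in mutant and 7.33 in wild type.

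Lpl (ENSMUSG00000015568, chr8:71404454-71430831, plus strand), the lipase that frees fatty acids at the vessel wall, showed no difference that passed. It had 90.8, 62.0, 80.8 and 108 CPM in mutant and 94.0, 111, 70.4 and 58.0 CPM in wild type, with wide and overlapping ranges. Lpl averaged 85.5 CPM ± 19.3 in mutant and 83.4 ± 23.7 in wild type (n = 4 each, SD), a log2 fold change of 0.04 ± 0.217 (SE; edgeR adjusted p = 0.974). The lanes had opposite signs, -0.42 in lane 1 and 0.55 in lane 2. Gpihbp1, which anchors the lipase to capillary endothelium, had 1 read in all mutant libraries together and 0 in wild type.

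Of the CPT1 pair, the muscle form stood lower in mutant and the liver form higher, and neither difference passed. Cpt1b (ENSMUSG00000078937, chr15:89246836-89256294, minus strand) had 60.0, 45.3, 56.1 and 68.2 CPM in mutant and 88.8, 93.2, 57.5 and 62.9 CPM in wild type. The lane 1 wild-type libraries stood above all others, and the lane 2 wild-type libraries lay among the mutant ones. Cpt1b averaged 57.4 CPM ± 9.55 in mutant and 75.6 ± 18.003 in wild type (n = 4 each, SD), a log2 fold change of -0.40 ± 0.170 (SE; edgeR adjusted p = 0.407). In lane 1 it was -0.79 (adjusted p = 0.0127, edgeR), and in lane 2 it was 0.034 (adjusted p = 0.981, edgeR).

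Cpt1a (ENSMUSG00000024900, chr19:3323348-3384119, plus strand) had 134, 86, 151 and 108 reads in mutant and 90, 73, 68 and 65 reads in wild type. In CPM it had 14.8, 10.9, 14.8 and 10.8 in mutant and 8.32, 10.01, 9.33 and 8.86 in wild type. The groups did not overlap, though mutant libraries 2 and 4 lay within 1 CPM of wild-type library 2. Cpt1a averaged 12.8 CPM ± 2.30 in mutant and 9.13 ± 0.716 in wild type (n = 4 each, SD), a log2 fold change of 0.49 ± 0.170 (SE; edgeR adjusted p = 0.249). It was near equal between lanes, at 0.50 in lane 1 and 0.48 in lane 2. In the authors' deposited table Cpt1a was the one gene of the 10 with an exon test score above 0, at rank 286, and the log2 ratio of its most changed exon was 1.82.

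Per length, Cpt1b made up 78.7%, 79.1%, 77.6% and 85.3% of the CPT1 pair in mutant and 90.7%, 89.5%, 84.9% and 86.6% in wild type. Its share averaged 80.2% ± 3.46 in mutant and 87.9% ± 2.63 in wild type (n = 4 each, SD). Mutant library 4 was above wild-type library 3, so the groups overlapped, and the muscle form was the larger part in each library. Cpt2 (ENSMUSG00000028607, chr4:107576586-107596215, minus strand) had 25.8, 25.6, 22.3 and 39.9 CPM in mutant and 38.6, 43.6, 36.1 and 33.5 CPM in wild type. Mutant library 4 was again within the wild-type range and the other 3 mutant libraries were below it. Cpt2 averaged 28.4 CPM ± 7.85 in mutant and 38.0 ± 4.30 in wild type (n = 4 each, SD), a log2 fold change of -0.42 ± 0.169 (SE; edgeR adjusted p = 0.374). It passed without mutant library 4, at -0.63 (adjusted p = 0.0324, edgeR), and in lane 1 alone, at -0.68 (adjusted p = 0.0315, edgeR). Without mutant library 4, Fabp3, Cd36 and Cpt2 were the 3 genes called, all lower, where 0.888% of all tested genes were called lower.

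Acadm (ENSMUSG00000062908, chr3:153585321-153607596, minus strand), the medium-chain dehydrogenase, had 57.2, 53.1, 58.2 and 64.5 CPM in mutant and 72.8, 83.6, 72.2 and 62.0 CPM in wild type. Wild-type library 4 lay within the mutant range and the other wild-type libraries above it. Acadm averaged 58.3 CPM ± 4.73 in mutant and 72.6 ± 8.84 in wild type (n = 4 each, SD), a log2 fold change of -0.32 ± 0.106 (SE) that missed the threshold (adjusted p = 0.226, edgeR). Acadvl (ENSMUSG00000018574, chr11:69823685-69828913, minus strand), the very-long-chain dehydrogenase, differed little between the groups. It ran from 15.6 to 16.6 CPM in mutant and from 15.8 to 17.97 CPM in wild type, with a log2 fold change of -0.06 ± 0.123 (SE; edgeR adjusted p = 0.900). Acadvl overlaps Dvl2 on the opposite strand by 2119 bases, and Dvl2 had 3824 reads where Acadvl had 1154, so without strand the counts of Acadvl may hold reads of Dvl2.

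**Figure D2:**
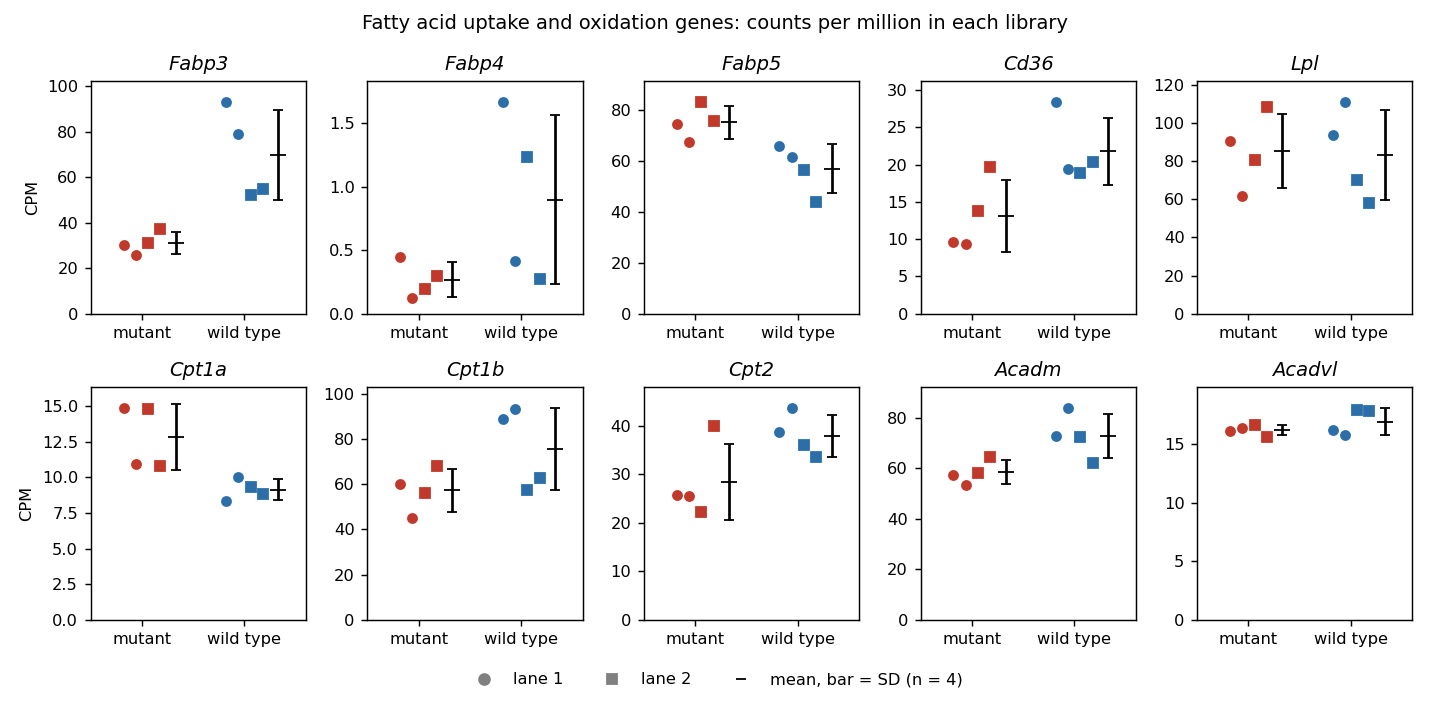
CPM of each of the 10 genes in each library (points, circles for lane 1 and squares for lane 2), mutant left and wild type right, with mean and SD (n = 4); each panel has its own scale from 0. Fabp3 was at 25.7 to 37.2 CPM in mutant and 52.0 to 93.0 CPM in wild type, while Lpl and Acadvl overlapped widely.

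By lane, 6 of the 9 tested genes had the same sign in both lanes, and Lpl, Cpt1b and Acadvl did not. In lane 1 alone 4 genes were called, Fabp3, Cd36, Cpt1b and Cpt2, all lower in mutant, where 4.1% of all tested genes were called lower in that lane. In lane 2 alone 0 of the 9 were called by edgeR, where 0.827% of all tested genes were called. At an unadjusted p under 0.05, 5 of the 9 passed the group by lane term, Fabp3, Cpt1b, Cd36, Lpl and Fabp5, and 16.6% of all tested genes did. After adjustment 0 of the 9 and 0.00678% of all tested genes passed, with edgeR adjusted p-values of 0.0678 for Fabp3, 0.100 for Cpt1b, 0.145 for Cd36 and Lpl and 0.230 for Fabp5. Each lane held 2 libraries of each group, so lane and the samples on it cannot be told apart.

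**Figure D3:**
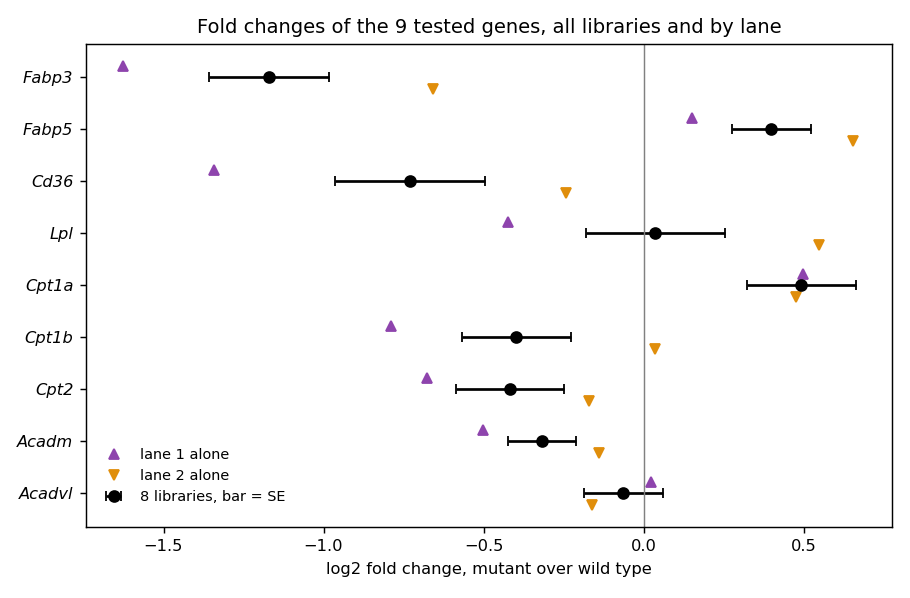
Log2 fold change of mutant over wild type for the 9 tested genes, with all 8 libraries (black, bar is the SE) and in lane 1 and lane 2 alone (triangles). Fabp3 stood at -1.17 with -1.63 and -0.66 in the lanes, Cpt1a at 0.49 with 0.50 and 0.48, and Lpl had lanes on both sides of 0.

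The order of levels was compared per kb of deposited exon length. In mutant outflow tracts Fabp3 was highest at 46.8 CPM per kb ± 7.12, followed by Lpl at 21.1, Fabp5 at 21.0, Acadm at 19.9 and Cpt1b at 19.8, whose ranges overlapped from neighbour to neighbour. Cpt2 at 11.98 and Acadvl at 10.6 came next, then Cpt1a at 4.86 and Cd36 at 4.35, also with overlapping ranges within each pair, and Fabp4 was last at 0.418. In wild type Fabp3 was again highest at 105.3 ± 29.7, followed by Cpt1b at 26.1, Acadm at 24.8, Lpl at 20.6, Cpt2 at 16.004 and Fabp5 at 15.9, whose ranges overlapped from neighbour to neighbour. Acadvl at 11.04, Cd36 at 7.22, Cpt1a at 3.46 and Fabp4 at 1.41 CPM per kb followed without overlap of ranges. On this length Cd36 and Cpt1a stood in opposite order in the groups, Cpt1a first in mutant by less than the spread and Cd36 first in wild type. The order in mutant depends on the length used. In CPM alone Cd36 averaged 13.1 and Cpt1a 12.8 in mutant, and the deposited length was 3016 bases for Cd36 and 2640 for Cpt1a. Their longest-coding reference transcripts had 3399 and 4317 bases, and per kb of these Cd36 would stand first in mutant too.

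The same libraries often stood at the ends of their group. Mutant library 4 was the highest mutant library in 6 of the 9 tested genes and mutant library 2 the lowest in 6. Wild-type library 2 was the highest wild-type library in 5 of the 9, and wild-type library 4 the lowest in 4. Mutant library 4 and wild-type library 2 are those with the highest chamber markers, and their part in the result was not tested. Without both, 3 of the 9 genes were called by edgeR, Fabp3 with Cd36 at -1.04 (adjusted p = 0.0211) and Cpt2 at -0.56 (adjusted p = 0.0397), all lower in mutant, where 1.21% of all tested genes were called lower.

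**Figure D4:**
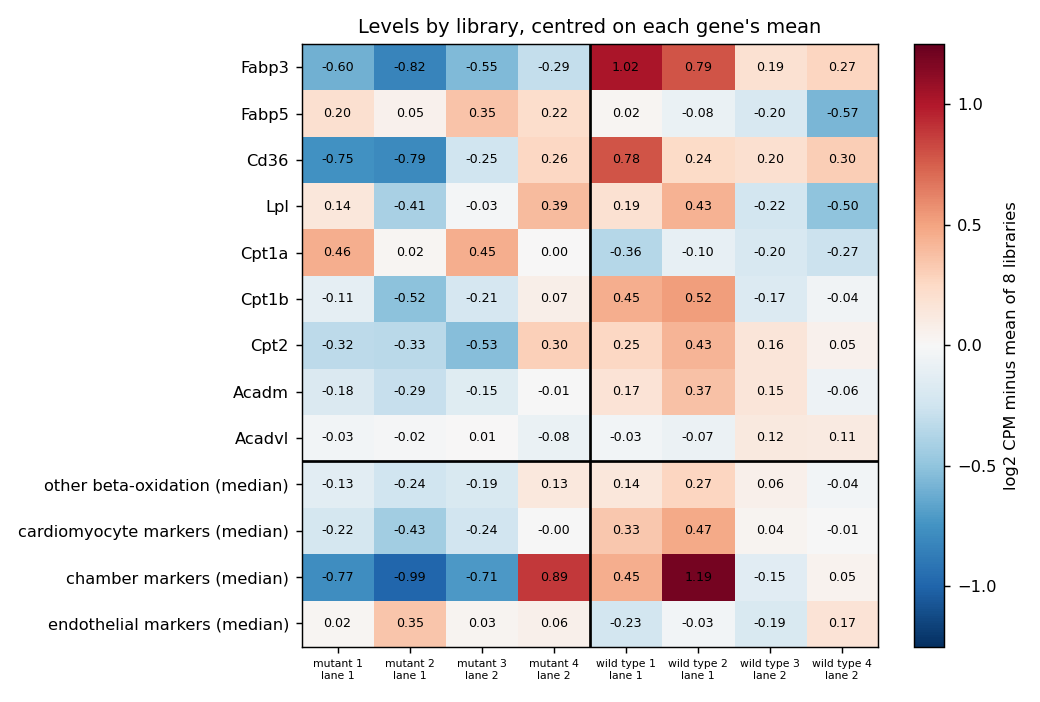
Level of each tested gene in each library as log2 CPM minus its mean over the 8 libraries, mutant left and wild type right, with the median of 4 gene lists in the lower rows. Fabp3 ran from -0.82 to -0.29 in mutant and from 0.19 to 1.02 in wild type, and the chamber list was high in mutant library 4 (0.89) and wild-type library 2 (1.19).

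Cardiomyocyte markers were present in each library and mostly stood lower in mutant, as 6 of the 9 tested genes did. Of 13 markers 12 had a log2 fold change below 0 and 4 were lower by edgeR, namely Tnni3, Myl7, Myl3 and Myh7, with a list median of -0.43. Of all tested genes 51.3% were below 0 and 0.942% were called lower. The troponin Tnni3 fell to 70.0 CPM ± 7.15 in mutant, against 134 ± 25.6 in wild type (n = 4 each, SD, adjusted p = 0.0031, edgeR), and the light chain Myl3 fell to 219.6 ± 91.8, against 647 ± 156 (adjusted p = 0.0325, edgeR). Tnni3 and Myl7 passed in each alternative. Myl3 missed the threshold in lane 2 alone (-0.95, adjusted p = 0.415, edgeR) and with no filter on low counts (0.154). Myl3 also missed it with lane as a covariate (0.0550) and when mutant library 1, 2 or 3 or wild-type library 1, 2 or 4 was left out (0.0516 to 0.114). Myh7 missed it in lane 2 alone (-0.39, adjusted p = 0.487, edgeR) and with lane as a covariate (0.0595). Myh7 also missed it when mutant library 1, 2 or 3 or wild-type library 1 or 3 was left out (0.0844 to 0.123). Actc1, the most abundant per length, did not pass (log2 fold change -0.06 ± 0.187, adjusted p = 0.943, edgeR). The list summed to 27132 to 35143 CPM in mutant and 33422 to 45815 CPM in wild type. In bulk tissue, fewer cells of a type and less RNA per cell cannot be told apart.

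Levels were also set against the reads of the cardiomyocyte list. Per 10000 such reads Fabp3 had 9.31 to 10.7 reads in mutant and 14.96 to 22.7 in wild type, with no overlap. Fabp5 had 21.5 to 28.5 reads per 10000 in mutant and 13.1 to 16.2 in wild type, and Cpt1a had 3.06 to 5.08 in mutant and 2.03 to 2.68 in wild type, both without overlap. Cpt1b, at 16.7 to 19.4 in mutant and 16.5 to 21.7 in wild type, and Acadm, at 17.8 to 20.02 in mutant and 17.8 to 20.8 in wild type, overlapped widely on this scale. With Ttn, the longest gene of the list, left out of the sum, Fabp3 and Fabp5 still had no overlap, and Cpt1a, at 5.27 to 9.71 in mutant and 4.13 to 5.50 in wild type, did overlap. The list sum is led by Ttn (log2 fold change -0.43) and Actc1 (-0.06). The 4 called markers were at -1.56 (Myl3), -0.97 (Myl7), -0.94 (Tnni3) and -0.48 (Myh7), where Fabp3 was at -1.17. The part of muscle content in the Fabp3 values was not tested.

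Other cell types were checked by their marker lists. Endothelial markers, from a cell type known to express Fabp5 and Cd36, summed to 867.6 to 1059 CPM in mutant and 721 to 856 CPM in wild type, with 1 of 14 tested genes higher (the receptor Tek) and Cdh5, the most abundant per length, at 0.10 on the log2 scale (adjusted p = 0.833, edgeR). Epithelial markers summed to 64.2 to 68.2 CPM in mutant and 106 to 212 CPM in wild type, with 1 of 4 tested genes lower and Krt18 at -0.30 (adjusted p = 0.574, edgeR). The gene that was lower was Perp, a desmosome protein, at 12.2 CPM ± 2.79 in mutant and 48.8 ± 6.38 in wild type (n = 4 each, SD, adjusted p = 7.37e-05, edgeR). Epcam, Cdh1 and Trp63 of the list did not pass the filter on low counts, and their groups overlapped in CPM. Epcam had 16 mutant and 117 wild-type reads, Cdh1 62 mutant and 275 wild-type reads, and Trp63 12 mutant and 88 wild-type reads. The list summed to 212 CPM in wild-type library 4, against 106 to 115 CPM in the other wild-type libraries. Perp, Epcam, Cdh1 and Trp63 were chosen after their values were seen. Macrophage markers summed to 11.3 to 15.5 CPM in mutant and 12.02 to 38.8 CPM in wild type, with 0 of 4 called and Cd68 at -0.15 (adjusted p = 0.907, edgeR). Liver and yolk sac markers summed to 22.4 to 73.4 CPM in mutant and 8.64 to 20.2 CPM in wild type, with 0 of 4 called by edgeR, and Afp averaged 16.6 CPM ± 11.5 in mutant and 1.65 ± 1.88 in wild type (n = 4 each, SD, adjusted p = 0.178, edgeR). Chamber muscle markers summed to 474.6 to 1376 CPM in mutant and 1048 to 2084 CPM in wild type, with 1 of 10 lower (Myl3). Smooth muscle markers summed to 1964 to 3031 CPM in mutant and 2423 to 3024 CPM in wild type, with 0 of 7 called by edgeR and Acta2 at -0.30 (adjusted p = 0.499, edgeR). Erythroid markers summed to 1532 to 8513 CPM in mutant and 3252 to 12781 CPM in wild type, with 0 of 8 called by edgeR and Hbb-y at -0.47 (adjusted p = 0.844, edgeR). The part of these cell types in the values of the fatty acid genes was not tested.

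The wider set of fatty acid genes was counted in 8 lists of 119 genes, of which 102 were tested. By edgeR 1 was lower and 0 were higher, where 0.942% of all tested genes were called lower and 0.562% higher. The 1 lower call is thus near the share over all genes. DESeq2 called 4 of the 102, 2 lower (G0s2 and Pparg) and 2 higher, against 2.98% of all genes. At an unadjusted p under 0.05 in edgeR 16 were lower and 8 higher, against 6.09% and 5.27% of all tested genes. A log2 fold change below 0 was found in 61, against 51.3% of all tested genes, and the median was -0.09. The gene that fell was G0s2 (ENSMUSG00000009633, chr1:195098356-195099303, minus strand, mm9), the inhibitor of adipose triglyceride lipase, which holds back the breakdown of stored fat. It had 6.09, 7.48, 9.49 and 6.47 CPM in mutant and 20.9, 20.8, 12.2 and 12.8 CPM in wild type. The groups did not overlap, and lane 1 of wild type was again above lane 2. G0s2 averaged 7.38 CPM ± 1.52 in mutant and 16.7 ± 4.83 in wild type (n = 4 each, SD), a log2 fold change of -1.18 ± 0.225 (SE; edgeR adjusted p = 0.0204). It missed the threshold when mutant library 1, 2 or 4 or wild-type library 1 was left out, with adjusted p-values up to 0.0834 by edgeR. Without both libraries low in Ddx3y it was -1.20 (adjusted p = 0.0706, edgeR), and without both libraries high in chamber markers -1.0004 (adjusted p = 0.0626, edgeR). In lane 2 alone it was -0.66 (adjusted p = 0.451, edgeR). The lipase itself, Pnpla2, stood at 0.23 (adjusted p = 0.652, edgeR).

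The other genes of mitochondrial beta-oxidation were all expressed, and 0 of 20 were called by edgeR. Of these 17 had a log2 fold change below 0, against 51.3% of all tested genes, with a median of -0.22. At an unadjusted p under 0.05, 6 were lower and 1 higher, against 6.09% and 5.27% of all tested genes. Etfa, an electron carrier of the dehydrogenases, was at -0.35 ± 0.128 (SE, adjusted p = 0.294, edgeR), Hadhb, a trifunctional protein subunit, at -0.28 ± 0.117 (adjusted p = 0.382, edgeR), and Acad11 at 0.26 ± 0.105 (adjusted p = 0.370, edgeR), all chosen after their values were seen. Etfb, the most abundant per length, averaged 104 CPM ± 25.3 in mutant and 122 ± 19.0 in wild type (n = 4 each, SD, adjusted p = 0.655, edgeR).

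In the other lists no gene passed. Among 16 tested genes of uptake, binding and activation, the median was -0.02, and the most abundant per length, the acyl-CoA binding protein Dbi, was at -0.07 ± 0.168 (SE, adjusted p = 0.928, edgeR). Acsl1, the main long-chain acyl-CoA synthetase of heart, was at -0.53 ± 0.171 (adjusted p = 0.211, edgeR) and was chosen after its values were seen. In the carnitine list the median of 7 tested genes was -0.14, with Aldh9a1, of carnitine synthesis, at 0.34 ± 0.164 (adjusted p = 0.474, edgeR). In the peroxisomal list the median of 12 was -0.09, with the transporter Abcd3 at -0.14 ± 0.0894 (adjusted p = 0.627, edgeR). In the list of ketone and branched-chain use the median of 9 was -0.04, with Oxct1, which activates ketone bodies, at -0.12 ± 0.114 (adjusted p = 0.759, edgeR). Fatty acid synthesis was the one list with a median above 0, at 0.13, and 9 of its 10 tested genes were above 0, with the desaturase Scd2 at 0.15 ± 0.103 (adjusted p = 0.645, edgeR). Of all tested genes 51.3% were below 0.

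**Figure D5:**
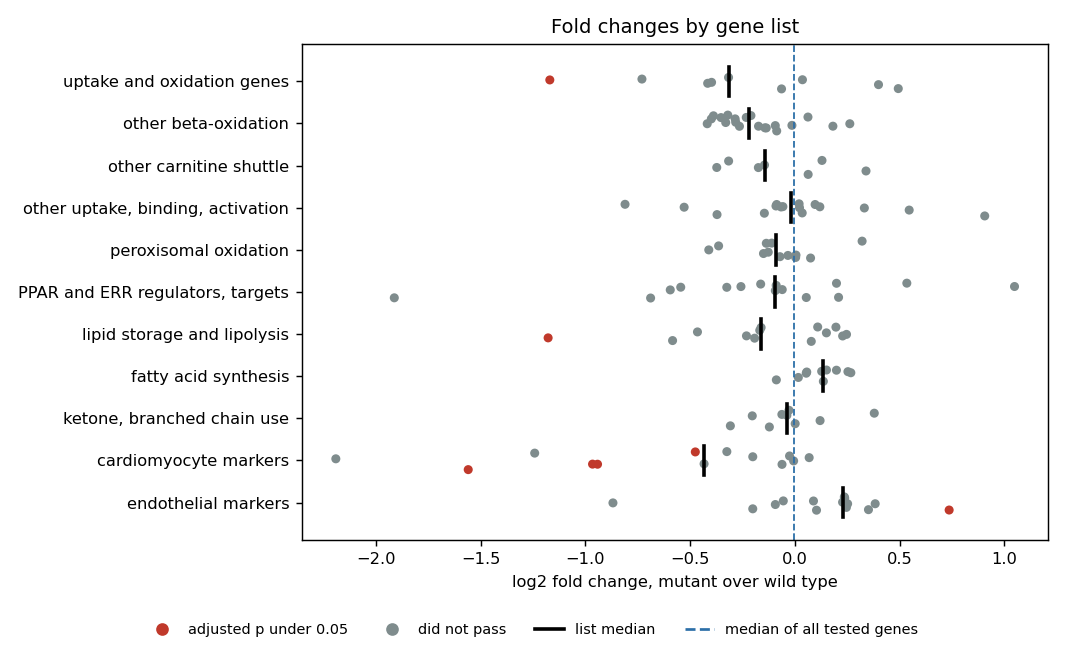
Log2 fold change of mutant over wild type for each tested gene of the uptake and oxidation set, the 8 wider fatty acid lists and 2 marker lists, with red for an adjusted p under 0.05, a black bar for the list median and a dashed line for the median of all tested genes. Fabp3 and G0s2 were the 2 fatty acid genes that passed, and the cardiomyocyte list held 4.

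Regulators of the pathway also did not pass, though several stood apart between the groups. The nuclear receptor Pparg, the fat cell regulator, had 2, 5, 3 and 13 reads in mutant and 29, 14, 15 and 20 in wild type. The groups did not overlap, mutant library 4 being closest to wild type, and its log2 fold change was -1.91 ± 0.470 (SE, adjusted p = 0.0732, edgeR). It passed with DESeq2 (adjusted p = 0.0176) and without mutant library 4 (-2.62, adjusted p = 0.0160, edgeR). With 1 library left out, its adjusted p-values ran up to 0.224 by edgeR. In lane 2 alone it was -1.59 and did not pass (adjusted p = 0.446, edgeR). The coactivator Ppargc1b averaged 17.9 CPM ± 1.61 in mutant and 26.1 ± 5.68 in wild type (n = 4 each, SD, adjusted p = 0.136, edgeR), also without overlap. Ppara, the receptor that drives fatty acid oxidation in heart, had 20 mutant and 31 wild-type reads and was not tested. Esrrg, an oxidative metabolism receptor of heart and the most abundant regulator per length, averaged 171 CPM ± 20.6 in mutant and 149 ± 14.1 in wild type (n = 4 each, SD, adjusted p = 0.530, edgeR). Pparg, Ppargc1b, Ppara and Pdk4, which follows, were chosen after their values were seen.

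Pdk4, a kinase that turns off pyruvate oxidation and is known to rise with fatty acid use, stood higher in mutant without passing. It had 24.9, 22.3, 26.4 and 24.7 CPM in mutant and 19.0, 12.3, 17.6 and 18.9 CPM in wild type. Its log2 fold change was 0.53 ± 0.149 (SE; edgeR adjusted p = 0.124). The groups did not overlap, and it passed with DESeq2 (adjusted p = 0.0430). With 1 library left out, its adjusted p-values were 0.126 to 0.352 by edgeR. In lane 2 alone it was 0.47 and did not pass (adjusted p = 0.433, edgeR).

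The genes outside these lists whose pattern was most like that of Fabp3 were sought over 14584 genes and the 8 libraries, by the root mean square difference of centred log2 CPM. They were Slc2a3 at 0.160, Agtr1a at 0.167 and Ccdc158 at 0.189. Slc2a3, a glucose transporter, averaged 102 CPM ± 18.002 in mutant and 221 ± 61.8 in wild type (n = 4 each, SD), a log2 fold change of -1.12 ± 0.188 (SE; edgeR adjusted p = 0.0143). Among other settings, Slc2a3 missed the threshold without mutant library 2 (adjusted p = 0.0558, edgeR) and in lane 2 alone (0.0702). Agtr1a, an angiotensin receptor, averaged 3.75 CPM ± 0.648 in mutant and 7.48 ± 1.22 in wild type (adjusted p = 0.0392, edgeR). Agtr1a missed the threshold when any library but wild-type library 4 was left out (0.0600 to 0.131) and in lane 2 alone (0.566). Ccdc158 averaged 1.75 CPM ± 0.447 in mutant and 4.29 ± 1.02 in wild type and did not pass (adjusted p = 0.0513, edgeR). In each of the 3 genes the lane 1 wild-type libraries stood above those of lane 2, as for Fabp3. The 3 were picked for their likeness to Fabp3 in these same libraries. Their lower mutant level and lane pattern therefore follow from the choice.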

How the data were processed

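Total RNA was extracted with a kit from Qiagen and made into libraries with one from NuGEN, per the labels' protocols. The submitters' processing notes name TopHat2 2.0.4 and mm9. How reads were assigned to genes, with or without strand, and by which annotation is not stated in these sources. The authors deposited raw counts per gene and library, summed exon lengths, and normalized log2 values per library. They also deposited pooled FPKM per group, a modified log2 fold change, scores of the p-value and of the false discovery rate (each as minus 10 log10), and a score and ratio of an exon test, per the file headers. The number of per-sample columns left unmapped was 0.

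For the comparison edgeR 4.0.16 (R 4.3.3) was run on the counts with filterByExpr, TMM scaling and its robust, two-sided quasi-likelihood test on group, with Benjamini-Hochberg adjustment over 14757 genes at 0.05. Standard errors are the absolute log2 fold change over the square root of F. CPM used TMM-scaled library sizes, and log2 CPM a prior count of 2. With totals of 7138732 to 11012246, 3 counts were 0.277 to 0.412 CPM; intervals cover counting error only. Replicates differed beyond sampling noise (chi-square per degree of freedom 5.77 to 20.7).

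The 10 genes and all lists were chosen with earlier results of these data known. Besides the 10, the rule named called members and the most abundant member per length of each list, and the 3 genes most like each called one; others are said to be chosen after their values were seen. The procedure was tested on simulated data. Alternatives were scaling, filter, DESeq2 1.42.0, limma 3.58.1 (limma-trend on the deposited log2 values), lane, a replicate block and leaving out libraries. Symbols were matched to RefSeq promoters on GRCm38.p6. Tables and figures were made in Python 3.11.15 (pandas 2.3.3, scipy 1.17.1, matplotlib 3.10.9).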

Additional observations from a re-analysis of the deposited data

Results flagged for a closer look

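In 7 of the 90 groups of 4 libraries searched, over 45 genes, 1 library stood far from the other 3 of its group, and chance flags about 5% of groups. Dbi, the acyl-CoA binding protein, had a log2 CPM of 6.74 in mutant library 2, where the other mutant libraries had 6.98 to 7.002. Aldh9a1, of carnitine synthesis, had 4.90 in wild-type library 2, where the other wild-type libraries had 4.37 to 4.40. The sarcomeric actin Actc1 had 13.30 in mutant library 4, where the other mutant libraries had 12.62 to 12.67. Agtr1a had 1.59 in mutant library 2, where the other mutant libraries had 2.05 to 2.14. The myosin heavy chain Myh7 had 11.74 in wild-type library 4, where the other wild-type libraries had 11.96 to 11.998. Etfa had 6.97 in mutant library 4, where the other mutant libraries had 6.84 to 6.86. The lipase Pnpla2 had 4.13 in wild-type library 3, where the other wild-type libraries had 4.37 to 4.40. None of the 10 uptake and oxidation genes had such a library in either group.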

How the results depend on the processing

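Over the 9 tested genes and 19 alternatives, 155 of 171 values kept their direction and side of the threshold, 2 lost the call, 7 gained one and 7 turned. Of the other 33 named genes, 553 of 627 did, 45 lost the call, 17 gained one and 12 turned. The count of changed uptake and oxidation genes, 1, was 0 with the replicate block, 4 in lane 1 alone, 0 in lane 2 alone and 3 without both libraries highest in chamber genes, and ran from 1 to 3 when 1 library was left out. Changed wider fatty acid genes, 1 in the main analysis, were 4 with DESeq2, 2 with limma-trend, 0 with the block, 12 in lane 1, 0 without both libraries lacking Y-linked reads, 2 without both chamber-high libraries, and 0 to 2 with 1 library left out. Over all genes, 222 became 440 with DESeq2, 76 with the block, 851 in lane 1, 122 in lane 2, 91 without both libraries lacking Y-linked reads, and 112 to 222 with 1 left out. With library size alone, 122 were lower and 110 higher, against 139 lower and 83 higher, and the median of all genes moved by 0.05 on the log2 scale. The sources used here do not say whether same-numbered samples are paired, though they shared a lane. Deviations of same-numbered libraries had correlations of -0.05, -0.21, 0.22 and -0.29, which are too few to decide it. Under the block Fabp3 was at -1.14 and missed the threshold (adjusted p = 0.0635, edgeR). The sign of Lpl turned in lane 1 (-0.42), without mutant library 4 (-0.10), wild-type library 3 (-0.04) or 4 (-0.10), and without both libraries lacking Y-linked reads (-0.13). Turned signs in lane 2 were Cpt1b (0.034), Dbi (0.27), Etfb (0.12), Actc1 (0.33), Zcchc17 (0.15) and Cdh5 (-0.055), and in lane 1 Acadvl (0.022) and Cd68 (0.17). Zcchc17 also turned without both chamber-high libraries (0.020). With 1 library left out, Lpl ran from -0.10 to 0.20, Dbi from -0.21 to 0.11, Actc1 from -0.26 to 0.11, Cdh5 from -0.0029 to 0.16 and Cd68 from -0.35 to 0.021. The cause of these shifts was not tested. Fabp4 and Ppara did not pass the filter on low counts, and Gpihbp1, with 1 read in all, was under the floor of 3 counts.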
